A study of Homo sapiens with 9 samples.

Results

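The genes described here are 45 interferon-stimulated genes, a list taken by symbol from the 20435 genes of the deposited table. Each gene was read from its row with the highest mean over the 9 libraries, and 31 of the 45 had enough reads to enter the tests over 12403 genes. The libraries came from PC9, a human lung adenocarcinoma line driven by mutant EGFR, the receptor kinase that osimertinib blocks. All cells carried the FUCCI4 cell cycle reporter, were fixed with glyoxal, and were separated by flow sorting into the phases G1, S and G2. The untreated cells (day 0) gave 2 G1, 2 S and 1 G2 library, and cells kept in 500 nM osimertinib for 28 days (day 28) gave 2 G1, 1 S and 1 G2 library. Clone 1 supplied a library for every day and phase, and clone 7 supplied G1 and S at day 0 and G1 at day 28.

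Interferons are secreted proteins that cells make when they sense viral or misplaced nucleic acid. Type I and type III interferons bind receptors that activate the kinases JAK1 and TYK2, which phosphorylate STAT proteins, among them STAT2. With IRF9 these form a transcription factor that binds a short promoter element, the interferon-stimulated response element, and switches on genes that block viral entry, RNA stability and translation. Several of those genes, including STAT2, IRF7 and IRF9, encode parts of the pathway itself. In carcinoma lines a part of the list can be transcribed without added interferon.

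Values are log2 of depth-scaled reads plus 1, called log2 values below. A read was worth 0.887 units in the deepest library (day 0 G1 clone 1, 108.7 M reads) and 12.9 units in the shallowest (day 0 G1 clone 7, 8.83 M reads). The reads of a row were those over the gene's coding span, introns included. Annotated exons covered 5.22% to 100% of the 45 spans, with a median of 22.2%, so spliced and unspliced RNA cannot be told apart. In these bulk libraries a change in the share of expressing cells cannot be told apart from a change in RNA per cell. Mitochondrial transcripts took 6.07% to 10.7% of reads at day 0 and 8.61% to 21.6% at day 28. Background, taken from 413 olfactory receptor genes, gave day 0 libraries 0.00110 to 0.00460 reads per kb per M reads and day 28 libraries 0.00781 to 0.0262. All 8 epithelial markers had reads in every library. Of the 8 leukocyte markers, 4 to 7 had reads in the day 0 libraries and 3 to 8 at day 28. All 8 had reads in day 28 G1 clone 1, and HLA-DRA was at 0 in 7 of the 9 libraries. The summed density of the list, in reads per kb per M reads, was 2.73 to 7.01 at day 0 and 0.332 to 2.73 at day 28. At day 0 most of it was CD68, with 6.83 of 7.01 in G1 clone 1. For 6 fibroblast markers the summed density was 0.774 to 1.07 and 0.879 to 2.92. No label says whether libraries of a clone were cultured apart, so p-values measure the spread between libraries, which may be technical.

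After 28 days of osimertinib, 13 of the 31 tested genes were higher and 1 was lower than at day 0 over all phases. Higher were STAT2, IRF9 and IRF7 of the signalling factors, ISG15 and HERC6, OASL, IFIT1 and IFIT2, IFITM3, GBP1, PARP14, IFI44 and IFI6. The rises were 1.90-fold (PARP14) to 11.1-fold (IFI44). The day 0 mean of IFI44, 6.95, was below the cutoff of 7.01 for entering the tests. IFI44 was thus tested because of its day 28 values, which holds wherever it is counted below. The next largest rise, 10.9-fold, was that of IFI6, whose day 0 mean of 7.63 was above the cutoff. GBP3 was lower. Other classical members, among them MX1, OAS1, OAS3, IFIT3, IFIH1, USP18 and BST2, did not pass the test. The share called was 41.9% higher against a background of 28.6% of all tested genes, and 3.23% lower against a background of 26.5%. The background depends on the method: 3544 of the 12403 genes were higher and 3292 lower as reported, and 4607 higher and 2240 lower with voom on the recovered reads, which called 13 of the 31 genes higher and 0 lower. The median log2 fold change was 0.37 over the 31 genes and 0.02 over all tested genes. In 10 of the 31 every day 28 library lay above every day 0 library, which held for 20.9% of all tested genes. The reverse held for 0 of the 31 and for 18.9% of all tested genes. The test was limma with day and phase as terms, with Benjamini-Hochberg adjusted p under 0.05.

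**Figure D1:**
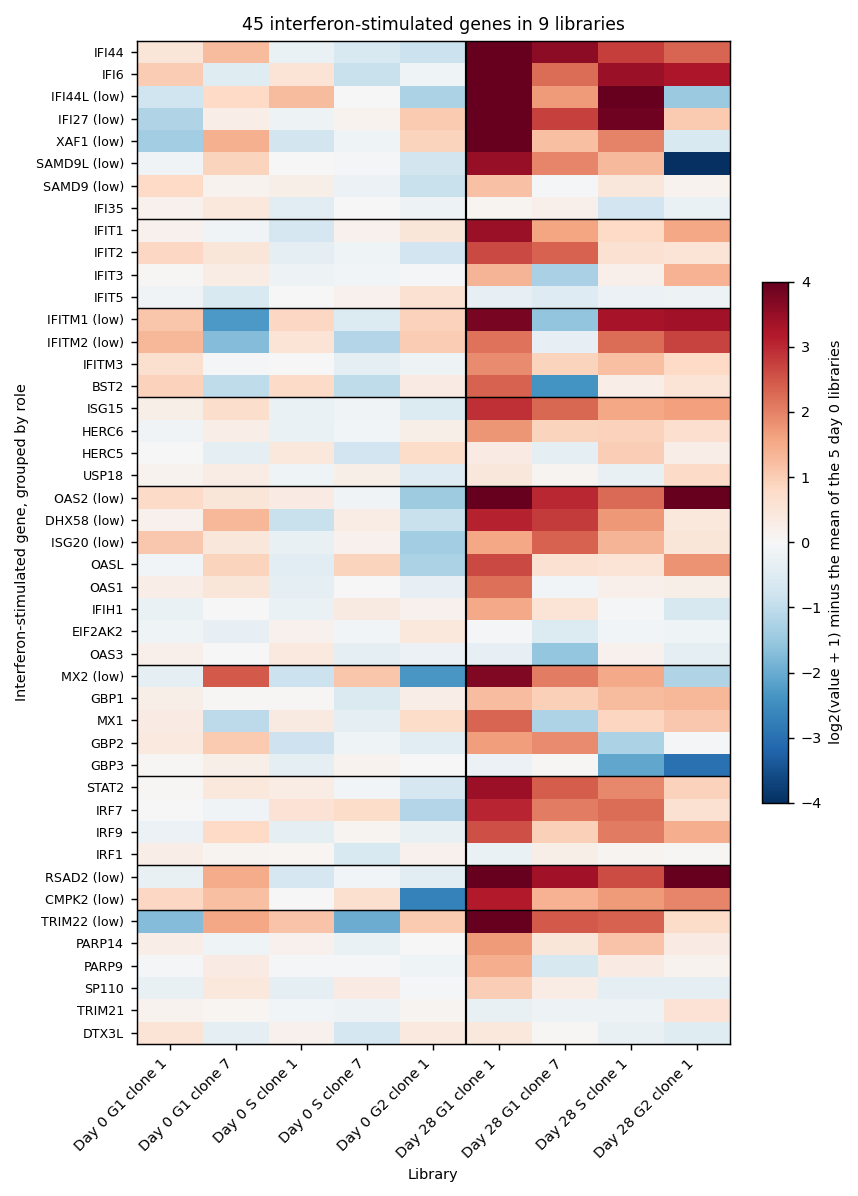
Log2 value of each of the 45 genes in each of the 9 libraries, minus the mean of the 5 day 0 libraries, grouped by role. Colours stop at 4 above or below, and genes marked "low" did not pass the low-value filter. The column of day 28 G1 clone 1 holds the highest value of 30 of the 45 genes.

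The promoters are shown because the genes are known for sharing the response element and because they did not move alike. RefSeq promoter windows of GRCh38.p14 (250 bases before to 50 after a gene's start) were matched by symbol for 35 of the 45 genes. The motif searched was GAAA, any 2 bases and GAAA, the core of the element, on both strands, so that it can also read TTTC, any 2 bases and TTTC. It was found for 25 of the 35 genes (71.4%), against 4.38% of all 27305 genes and 3.57% of all 35116 promoters in the same table. Among the genes that were higher at day 28 it was found for 7 of 10, among those with no call for 11 of 15, and among those too low to test for 6 of 9. A match is a description of these letters and not of a bound site. The windows below stop before the start site, read 5′ to 3′ on the gene's strand, and carry a motif match in capitals. Further matches, some overlapping the capitals, are left in lower case in the ISG15, IFIT1, IFITM3 and BST2 windows. ISG15, IFI44, IFI6, IFIT1, IFITM3, GBP1 and PARP14 were higher at day 28, and OAS3, IFIT3 and BST2 had no call.
ISG15 (chr1:1013360-1013429, plus strand): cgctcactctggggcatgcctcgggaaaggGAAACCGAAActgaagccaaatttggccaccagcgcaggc
IFI44 (chr1:78649741-78649788, plus strand): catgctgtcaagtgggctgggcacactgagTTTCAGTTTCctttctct
IFI6 (chr1:27672309-27672378, minus strand): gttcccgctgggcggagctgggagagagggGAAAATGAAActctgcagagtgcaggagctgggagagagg
IFIT1 (chr10:89392477-89392546, plus strand): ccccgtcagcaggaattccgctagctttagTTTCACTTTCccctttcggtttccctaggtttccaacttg
IFITM3 (chr11:320861-320925, minus strand): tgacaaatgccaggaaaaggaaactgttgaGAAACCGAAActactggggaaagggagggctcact
GBP1 (chr1:89065296-89065365, minus strand): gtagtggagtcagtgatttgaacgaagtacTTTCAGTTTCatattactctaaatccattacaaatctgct
PARP14 (chr3:122680780-122680838, plus strand): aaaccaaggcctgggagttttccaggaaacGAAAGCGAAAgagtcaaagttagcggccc
OAS3 (chr12:112938301-112938370, plus strand): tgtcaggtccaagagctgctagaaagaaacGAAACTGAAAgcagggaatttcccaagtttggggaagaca
IFIT3 (chr10:89327845-89327914, plus strand): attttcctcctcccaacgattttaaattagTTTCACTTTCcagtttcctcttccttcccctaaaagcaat
BST2 (chr19:17405721-17405790, minus strand): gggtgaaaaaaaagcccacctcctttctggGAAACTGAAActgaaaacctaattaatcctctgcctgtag

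In the sentences that follow, day 0 values are given in the order G1 clone 1, G1 clone 7, S clone 1, S clone 7 and G2 clone 1, and day 28 values in the order both G1 libraries (clone 1, then clone 7), S and G2.

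Of the 4 signalling factors, 3 were higher. STAT2, a subunit of the interferon response factor (ENSG00000170581, chromosome 12, 56343389 to 56356571, GRCh38), had log2 values of 10.17, 10.56, 10.42, 10.03 and 9.45 at day 0 and 13.56, 12.55, 12.06 and 11.06 at day 28. All 4 day 28 libraries were above all 5 day 0 libraries, and the log2 fold change was 2.18 ± 0.28 (SE, limma adjusted p = 0.000161). IRF9, the DNA-binding subunit of that factor, stood at 9.03, 10.08, 8.93, 9.37 and 8.97 at day 0 and at 11.84, 10.22, 11.36 and 10.73 at day 28. Its groups were also apart, and it rose by 1.77 ± 0.37 (SE, limma adjusted p = 0.00205). Its span shares its strand with another annotated coding gene. IRF7, which drives the later wave of type I interferon genes in immune and infected cells, stood at 8.52, 8.39, 9.12, 9.25 and 7.37 at day 0 and at 11.58, 10.56, 10.76 and 9.14 at day 28. The G2 library lay within the day 0 range and the other 3 above it, and IRF7 was 4.29-fold higher (limma adjusted p = 0.000352).

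IRF1, a factor best known from the response to interferon gamma, stood at 10.90 to 11.78 at day 0 and 11.27 to 11.74 at day 28, with a log2 fold change of 0.00 ± 0.23. This value rests on a row with a span of 37.4 kb that also holds another annotated non-coding gene of the same strand. The row of the first-numbered IRF1 transcript, a span of 5.53 kb, had 10.98, 10.51, 10.77, 10.15 and 10.76 at day 0 and 10.01, 9.94, 9.85 and 9.77 at day 28. On that row all day 28 libraries were below all day 0 libraries. In a fit that used the first-numbered transcript of each gene IRF1 was lower, at -0.77 (limma adjusted p = 0.0163), so its call depends on the row.

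ISG15 is a ubiquitin-like protein that is joined to other proteins, HERC5 is the ligase that attaches it in human cells, HERC6 is a related ligase, and USP18 removes it and damps the receptor. ISG15 (ENSG00000187608, chromosome 1, 1013574 to 1014478) had log2 values of 9.96, 10.44, 9.47, 9.59 and 9.19 at day 0 and 12.66, 12.03, 11.28 and 11.37 at day 28. The groups did not overlap, and the log2 fold change of 2.03 ± 0.23 had the smallest adjusted p of the 31 genes (SE, limma adjusted p = 7.50e-05). HERC6 stood at 9.28, 9.67, 9.16, 9.29 and 9.65 at day 0 and at 11.19, 10.31, 10.35 and 10.09 at day 28. It rose by 1.03 ± 0.28 (SE, limma adjusted p = 0.00893), with no overlap between the days, and missed the threshold under quantile scaling. HERC5, its neighbour on chromosome 4, had 9.37, 8.97, 9.79, 8.62 and 10.10 at day 0 and 9.70, 8.99, 10.35 and 9.64 at day 28, so its days overlapped and it had no call. USP18 also had no call, with 7.79 to 8.60 at day 0 and 8.01 to 9.06 at day 28.

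Of the 8 RNA sensors and RNA-activated enzymes, 5 were tested and OASL was the single call. OASL, a catalytically inactive relative of the 2′-5′ oligoadenylate synthetases, had log2 values of 8.62, 9.62, 8.31, 9.63 and 7.45 at day 0 and 11.37, 9.33, 9.27 and 10.53 at day 28. G1 clone 1 and G2 lay above the day 0 range and G1 clone 7 and S inside it. The log2 fold change was 1.37 ± 0.54 (SE, limma adjusted p = 0.0494), and the call was lost in 9 of 21 alternative fits, where the adjusted p reached 0.231. The synthetases make a second messenger that activates the ribonuclease RNase L. OAS1 stood at 10.04, 10.26, 9.41, 9.76 and 9.45 at day 0 and at 11.97, 9.69, 10.00 and 10.03 at day 28, with G1 clone 1 alone above the day 0 range. OAS3 stood at 8.88, 8.69, 9.05, 8.29 and 8.42 at day 0 and at 8.34, 7.12, 8.83 and 8.32 at day 28, with G1 clone 7 alone below it. IFIH1 (the sensor MDA5) and EIF2AK2 (the kinase PKR, which halts translation) differed by 0.32 ± 0.37 and -0.21 ± 0.19 and had no call.

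**Figure D2:**
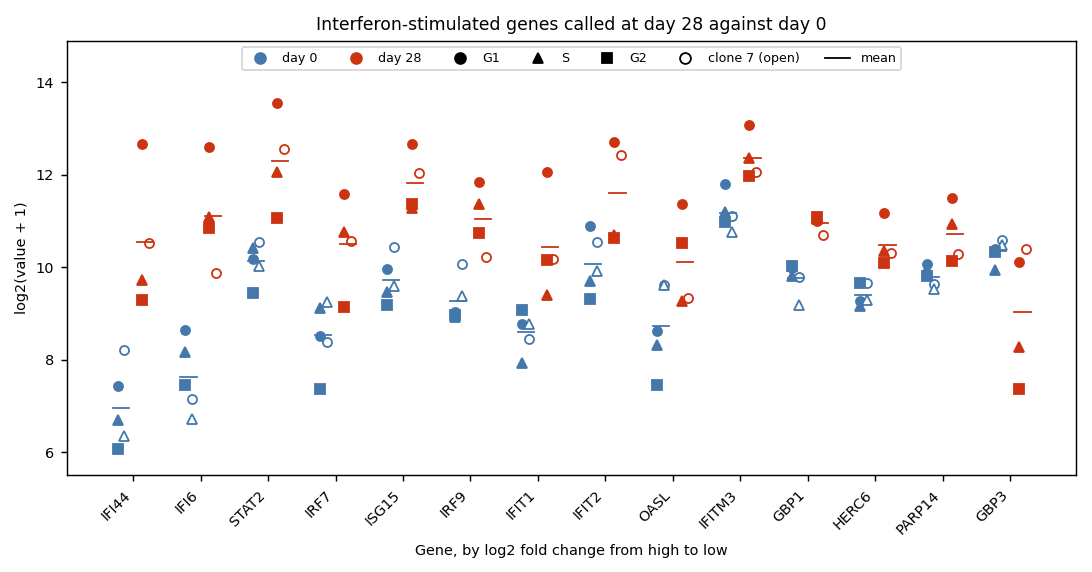
Log2 value of each of the 14 genes called at day 28 against day 0, by library. Blue is day 0 and red day 28, circles are G1, triangles S and squares G2, open symbols are clone 7, and short lines are means of the 5 and 4 libraries. In 10 of the 14 genes no red symbol lies within the range of the blue ones.

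The IFIT proteins bind viral RNA and block its translation. Their 4 genes lie within 115.5 kb of chromosome 10. IFIT1 had log2 values of 8.78, 8.45, 7.94, 8.76 and 9.07 at day 0 and 12.06, 10.17, 9.39 and 10.16 at day 28, and IFIT2 had 10.89, 10.54, 9.71, 9.91 and 9.32 at day 0 and 12.70, 12.44, 10.70 and 10.63 at day 28. For IFIT1 the days did not overlap, while for IFIT2 the G1 libraries of day 28 lay above the day 0 range and S and G2 inside it. IFIT1 rose by 1.73 ± 0.44 (SE, limma adjusted p = 0.00659) and IFIT2 by 1.43 ± 0.24 (SE, limma adjusted p = 0.000588). IFIT2 missed the threshold with the median row per gene, at 0.82 (limma adjusted p = 0.0625). IFIT3 stood at 8.61, 8.86, 8.35, 8.45 and 8.49 at day 0 and at 9.90, 7.24, 8.76 and 9.93 at day 28. G1 clone 1 and G2 were above the day 0 range, G1 clone 7 was below it, and there was no call. IFIT5 stood at 9.75, 9.27, 9.90, 10.06 and 10.51 at day 0 and at 9.58, 9.38, 9.66 and 9.70 at day 28, inside the day 0 range, with no call, and was lower with the first-numbered transcript (-1.04, limma adjusted p = 0.0270). Differences between these neighbours were not tested, and how reads shared by related genes were counted is not given in the sources used here.

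Among the membrane restriction factors, IFITM3, which stops viruses fusing in endosomes, had log2 values of 11.80, 11.11, 11.20, 10.77 and 10.97 at day 0 and 13.08, 12.06, 12.36 and 11.97 at day 28. No day 28 library reached down to the day 0 range, and the log2 fold change was 1.17 ± 0.26 (SE, limma adjusted p = 0.00282). Per kb of span, introns included, IFITM3 had the highest median of the 45 genes on both days. Its medians were 17.1 at day 0 and 48.2 at day 28, in reads per kb per M reads. ISG15 was next with 8.18 and 44.3, and IFIT2 followed with 2.94 and 13.8. Annotated exons covered 61.5% of the IFITM3 span, 55.0% of ISG15 and 100% of IFIT2, but 5.22% of EIF2AK2. The order is thus not one of spliced RNA levels. IFITM1 and IFITM2, within 12.6 kb of IFITM3 on chromosome 11, fell under the low-value filter. BST2 (tetherin), which holds budding virions at the cell surface, ranged from 7.16 to 9.11 at day 0 and from 5.79 to 10.54 at day 28. Its highest and lowest values were both in G1 at day 28, in clone 1 and clone 7.

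Of the large GTPases, which act on viral particles and on membranes around microbes, 1 was higher and 1 lower. GBP1 stood at 9.99, 9.80, 9.82, 9.18 and 10.03 at day 0 and at 10.99, 10.71, 11.04 and 11.08 at day 28. Its day 28 libraries lay close together and above all day 0 libraries, and it rose by 1.16 ± 0.24 (SE, limma adjusted p = 0.00223). GBP3 (ENSG00000117226, chromosome 1, 89007724 to 89020721), in the same cluster and on the same strand as GBP1, had 10.40, 10.59, 9.95, 10.48 and 10.33 at day 0 and 10.12, 10.39, 8.27 and 7.38 at day 28. Its G1 libraries stayed in the day 0 range, and S and G2 lay below it. Over all phases it differed by -1.39 ± 0.41 (SE, limma adjusted p = 0.0143), and the call was lost without day 0 G2, day 28 S or day 28 G2 and with voom, where the adjusted p reached 0.0843. GBP2, the third gene of the cluster, stood at 11.66, 12.32, 10.45, 11.11 and 10.87 at day 0 and at 12.94, 13.17, 10.03 and 11.22 at day 28. G1 was the highest phase on both days, and the day comparison gave no call (0.34 ± 0.32). MX1 had 9.98, 8.60, 10.00, 9.28 and 10.40 at day 0 and 11.99, 8.42, 10.51 and 10.74 at day 28, with the 3 clone 1 libraries of day 28 above the day 0 range and clone 7 below it.

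Of the 5 tested genes among PARP9, PARP14, DTX3L, TRIM21 and SP110, PARP14 was called. PARP14, an ADP-ribosyltransferase of the macro domain group, had log2 values of 10.06, 9.64, 9.96, 9.52 and 9.80 at day 0 and 11.50, 10.30, 10.94 and 10.14 at day 28. The days did not overlap, and the log2 fold change was 0.93 ± 0.30 (SE, limma adjusted p = 0.0216). It moved to 0.03 with the median row and 0.27 with the first-numbered transcript, and the call was also lost under quantile scaling and without day 28 G1 clone 1 or day 28 S. PARP9 and DTX3L, which form a complex and start from a shared promoter region on chromosome 3, had no call. PARP9 stood at 10.95, 11.32, 10.93, 10.90 and 10.82 at day 0 and at 12.43, 10.35, 11.31 and 11.13 at day 28, and DTX3L at 8.53, 7.60, 8.17, 7.31 and 8.37 and at 8.42, 8.05, 7.71 and 7.50. TRIM21, a cytosolic antibody receptor, and SP110, a nuclear body protein, differed by -0.07 ± 0.25 and 0.09 ± 0.29.

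IFI44 and IFI6 had the largest fold changes. The day 0 mean of IFI44, 6.95, was below the cutoff of 7.01, and it was tested because of its day 28 values. Its day 0 libraries held 23 to 193 reads. IFI44, a cytoplasmic interferon-induced protein (ENSG00000137965, chromosome 1, 78650196 to 78663811), had log2 values of 7.43, 8.21, 6.70, 6.35 and 6.08 at day 0 and 12.66, 10.53, 9.72 and 9.29 at day 28. The lowest day 28 library exceeded the highest day 0 library by more than 1 log2 unit, and the log2 fold change was 3.47 ± 0.45 (SE, limma adjusted p = 0.000162). IFI6, a membrane protein that protects against apoptosis and flavivirus replication (ENSG00000126709, chromosome 1, 27666381 to 27669314), had 8.64, 7.16, 8.18, 6.73 and 7.45 at day 0 and 12.61, 9.88, 11.09 and 10.85 at day 28. The days were again apart, at 3.45 ± 0.55 (SE, limma adjusted p = 0.000476). In median reads per kb per M reads IFI6 went from 0.525 to 7.65 and IFI44 from 0.0792 to 0.997. IFI35 had no call, at -0.25 ± 0.21.

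The calls of IFI44, IFI6, ISG15, STAT2, IRF7, IRF9, IFIT1, IFITM3 and GBP1 were kept in every alternative fit that tested them. Of these, IFI44 passed the low-value filter because of its day 28 values. Subtracting the olfactory density left 12 genes higher and 1 lower, with OASL lost. In day 28 G1 clone 1, 22 of the 31 genes were above every day 0 library and 1 below (39.0% and 36.6% of all tested genes). In S the counts were 13 and 4 (35.4% and 32.2%), and in G2 they were 15 and 2 (36.2% and 34.0%). In day 28 G1 clone 7, whose mitochondrial share of 8.61% lay within the day 0 range, 14 of the 31 genes were above every day 0 library (37.7% of all tested genes) and 7 below (36.8%).

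The 4 pairs of libraries that share a phase and a clone differed in how many of the genes moved. In G1 of clone 1, 21 of the 31 genes were at least 2-fold higher at day 28 and 0 at least 2-fold lower, against a background of 27.5% and 22.2% of all tested genes. In G1 of clone 7 the counts were 7 and 3 (background 21.8% and 20.7%), in S of clone 1 they were 10 and 1 (21.4% and 12.7%), and in G2 of clone 1 they were 12 and 1 (21.9% and 17.3%). The median difference of the 31 genes was 1.43 log2 units in G1 of clone 1, 0.11 in G1 of clone 7, 0.51 in S and 0.44 in G2. The G2 pair has 1 library a day and was not tested. Its largest differences were in IFI6 (3.40), IFI44 (3.21), OASL (3.08) and ISG15 (2.18) upward and GBP3 (-2.96) downward.

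**Figure D3:**
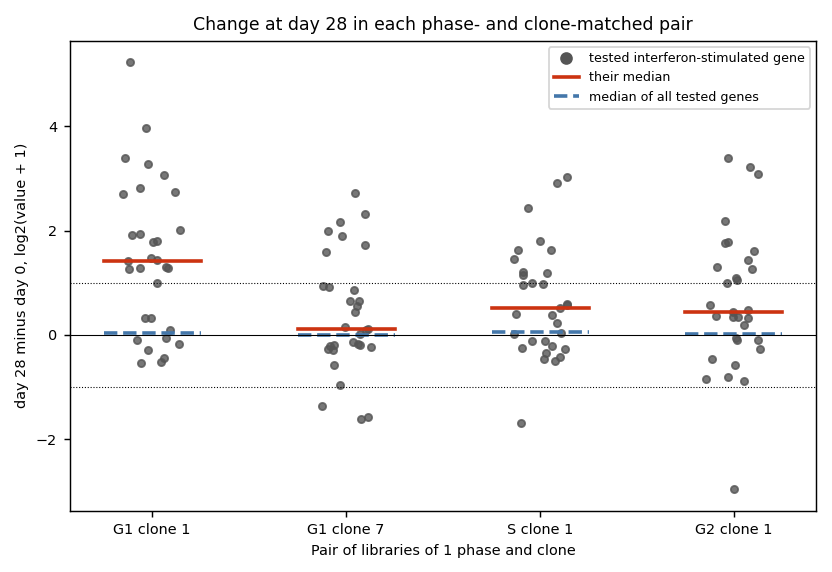
Day 28 minus day 0, in log2 values, for the 31 tested genes in each of the 4 pairs of libraries of the same phase and clone. Red lines are the medians of the 31 genes (1.43, 0.11, 0.51 and 0.44), dashed blue lines the medians of all tested genes, and dotted lines a 2-fold difference.

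The test within G1, with 2 libraries a day, called 9 of the 31 genes higher and 0 lower. The background was 19.9% higher and 19.1% lower. At an unadjusted p under 0.05, 13 of the 31 were higher and 0 lower, against 25.5% and 24.5% of all tested genes. The 9 were STAT2 (2.69 ± 0.39), ISG15 (2.14 ± 0.34), IFIT2 (1.85 ± 0.30), IRF7 (2.61 ± 0.43), IFI44 (3.77 ± 0.72), IFIT1 (2.50 ± 0.64), IFI6 (3.35 ± 0.95), HERC6 (1.28 ± 0.40) and GBP2 (1.06 ± 0.35), as log2 fold changes with SE and limma adjusted p from 0.00391 to 0.0452. GBP2 was the single one of these not called over all phases, and IFI44 was tested because of its day 28 values. The count was 5 without day 28 G1 clone 1 and 14 without day 28 G1 clone 7. A fit with each clone as a replicate block gave 12, adding IFITM3 (1.11), GBP1 (0.96) and PARP14 (1.04), with limma adjusted p of 0.0114 to 0.0351. The share of all genes called in these alternative G1 fits is not given here. HERC6 and GBP2 were lost in 7 of 20 and 6 of 21 alternative fits, IFI6 and IFIT1 without day 0 G1 clone 7 and without day 28 G1 clone 1, and IFIT2 with the median row (limma adjusted p = 0.106).

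In S, with 2 libraries at day 0 and 1 at day 28 whose spread was taken from the other groups, ISG15 was higher (1.75 ± 0.42, SE, limma adjusted p = 0.0497) and GBP3 lower (-1.94 ± 0.44, SE, limma adjusted p = 0.0451). The background was 4.39% higher and 2.89% lower. The replicate block also called IFI6 (2.69, limma adjusted p = 0.0342). Both calls were lost without either day 0 S library and without either day 28 G1 library, where the counts were 0 and 0, and that of ISG15 also without day 28 G2.

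The genes were also compared between phases of the same day. At day 0, S against G1 called 0 of 31 genes in either direction by limma (0.0% of all tested genes) and 0 by voom. At an unadjusted p under 0.05, 0 were higher and 2 lower, against 1.7% and 1.9% of all tested genes. Those 2 were GBP2 (-1.21 ± 0.35) and IFIT2 (-0.91 ± 0.30), each with an adjusted p of 0.999. At day 28, S and G2 together against G1 called 0 higher and 3 lower, against a background of 2.89% higher and 1.85% lower. GBP3 was lower by -2.43 ± 0.36 (SE, limma adjusted p = 0.0143), GBP2 by -2.43 ± 0.35 (SE, limma adjusted p = 0.0130) and IFIT2 by -1.91 ± 0.30 (SE, limma adjusted p = 0.0174). For each of the 3 genes both G1 libraries lay above the S and the G2 library. The count of 3 became 0 without either day 28 G1 library, which leaves 1 library in G1.

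The term for a different day 28 change in S and G2 than in G1 called 0 of 31 genes by limma and 0 by voom (0.0% of all tested genes). At an unadjusted p under 0.05, 0 were higher and 3 lower, against 6.5% and 4.6% of all tested genes. The 3 were GBP3 (-2.14 ± 0.54, SE, limma adjusted p = 0.257), IFIH1 (-1.57 ± 0.59, 0.370) and GBP2 (-1.34 ± 0.51, 0.377). A phase dependence of the change was thus not detected for any of the 31 genes in these 9 libraries, and GBP3 in G1 against S and G2 is given as values.

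The day 28 G1 library of clone 1 stood apart in these genes. It was the highest of the 9 libraries for 30 of the 45 genes and for 18 of the 31 tested, against 16.6% of all tested genes. Reads over the 45 spans made up 295 to 397 per M reads in the 5 day 0 libraries, and 1395, 730.5, 568 and 528 in the day 28 libraries. Its mitochondrial share was 19.6% and that of day 28 S was 21.6%. Without this library 11 of the 31 genes were still called higher over all phases, and OASL and PARP14 were lost.

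The clones were compared in G1 at day 28. There 15 of the 31 genes were at least 2-fold lower in clone 7 than in clone 1 and 0 at least 2-fold higher, against a background of 7.39% and 4.76%. In G1 at day 0 the counts were 3 and 1, against 6.89% and 11.3%. With 1 library of each clone per group, these counts have no test. Over all libraries, clone 7 against clone 1 called 0 of 31 genes in either direction by limma (background 0.387% higher and 0.226% lower). At an unadjusted p under 0.05, 1 was higher and 6 were lower, against 9.0% and 6.6% of all tested genes. By voom 0 were higher and 1, IFI6, was lower.

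The genes with the smallest p between clones were IFI6 (-1.79 ± 0.36, SE, limma adjusted p = 0.0587), BST2 (-2.66 ± 0.57, SE, limma adjusted p = 0.0707) and MX1 (-1.78 ± 0.46, SE, limma adjusted p = 0.105). BST2 stood at 7.16, 7.17 and 5.79 in the 3 clone 7 libraries and at 8.43 to 10.54 in the 6 clone 1 libraries. MX1 stood at 8.60, 9.28 and 8.42 in clone 7 and at 9.98 to 11.99 in clone 1. For both genes all clone 7 libraries were below all clone 1 libraries on either day. Leaving out day 0 G1 clone 7, the shallowest library, gave calls for IFI6 (-1.83, limma adjusted p = 0.0318) and BST2 (-2.77, limma adjusted p = 0.0323). The term for a different day 28 change in clone 7, added after the values were seen, called 0 of 31 by limma (background 0.113% higher and 0.274% lower) and 0 by voom. At an unadjusted p under 0.05 it gave 0 higher and 7 lower, against 5.6% and 8.5% of all tested genes. Its lowest adjusted p was 0.110, for IFIT3 (-2.76 ± 0.70). With clone 1 alone the day comparison called 17 genes higher and 1 lower, where 3548 of all 12403 tested genes were higher and 3233 lower. The added ones were IFIT3 (1.05), MX1 (0.95), OAS1 (1.03) and PARP9 (0.72).

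The 14 genes under the low-value filter were IFI44L, IFI27, IFITM1, IFITM2, ISG20, MX2, OAS2, DHX58, XAF1, RSAD2, CMPK2, SAMD9, SAMD9L and TRIM22. The number with more than 3 times the reads that the olfactory density would give over their span was 6 to 11 in the day 0 libraries, and 14, 11, 8 and 3 in the day 28 libraries. Together they made up 3.46 to 7.08 reads per M reads at day 0 and 73.9, 17.3, 24.0 and 17.3 at day 28. The day 28 G1 library of clone 1 was thus the high one here too, and the G2 library, with the highest background, had the fewest of these genes above it. The same figures were not taken for the other genes under the filter. Whether the pattern is particular to these 14 was not tested.

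Several low genes were close to absent at day 0. RSAD2 (viperin), an enzyme that makes a chain-terminating nucleotide, had 0 to 3 reads in the day 0 libraries and 12 to 66 at day 28. OAS2 had 0 to 16 reads and 19 to 299, and IFI27, a mitochondrial and nuclear membrane protein, 0 to 8 and 10 to 126. IFI44L, which lies beside IFI44, had 0 to 9 reads at day 0 and at day 28 had 428 in G1 clone 1, 156 in S, 10 in G1 clone 7 and 0 in G2. In a fit without the filter, where 24.4% of 20435 genes were higher and 16.4% lower, 6 of the 14 were higher over all phases and 0 lower. These were OAS2, RSAD2, IFI44L, IFI27 and DHX58, with limma adjusted p from 0.00135 to 0.0456, and CMPK2, which lay at the threshold. No fold is given against so few reads. Some of their day 28 values were near the background, which was itself higher than at day 0. In S, RSAD2 had 12 reads, fewer than the olfactory density would give over its span, and OAS2 had 19 where it would give 15.8. In G2, DHX58 had 13 reads against 11.4, RSAD2 57 against 33.9, CMPK2 43 against 28.3 and IFI44L 0 against 15.7. In G1 without the filter 5 of the 14 (IFI27, OAS2, RSAD2, IFI44L and SAMD9L) were higher and 0 lower (background 14.3% and 11.7%), in S 0 and 0 (8.86% and 3.75%), and in S against G1 at day 0 likewise 0 and 0 (0.00979% and 0.0%). Without the filter the clone comparison called none of the 14 (0.475% and 0.323%), nor did the day-by-clone term (0.396% and 1.14%).

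The other 8 low genes had no call over all phases. SAMD9L and SAMD9 are neighbouring genes for regulators of translation, and their difference was not tested. SAMD9L had 13 to 92 reads in every day 0 library, 372 in G1 of clone 1, 141 in G1 of clone 7 and 101 in S at day 28, and 0 in day 28 G2, whereas SAMD9 had 31 reads there. A count of 0 allows up to 3 reads in that library, for counting error only. Without the filter SAMD9L was lower in S and G2 than in G1 at day 28 (limma adjusted p = 0.00492, background 2.76% lower and 2.9% higher), where the G2 library is the one without reads. IFITM1 had 8 reads in G1 clone 7 at day 28 and 278 to 318 in the 3 clone 1 libraries, and 0 and 12 reads against 46 to 150 at day 0. Depth differed between these libraries. In reads per kb per M reads IFITM1 had 0.230 against 6.56 to 10.0 at day 28, and 0 and 0.382 against 1.00 to 1.33 at day 0. IFITM2 likewise had 0, 5 and 13 reads in the clone 7 libraries and 30 to 133 in those of clone 1. In the same unit this was 0, 0.153 and 0.359 against 0.588 to 2.86. The IFITM1 span overlaps the annotated IFITM2 gene on the same strand, so the clone gaps of IFITM1 and IFITM2 may not be separate observations. The counts of 0 are from day 0 G1 clone 7, the shallowest library. MX2, XAF1, TRIM22 and ISG20 had at most 184 reads in any library.

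**Figure D4:**
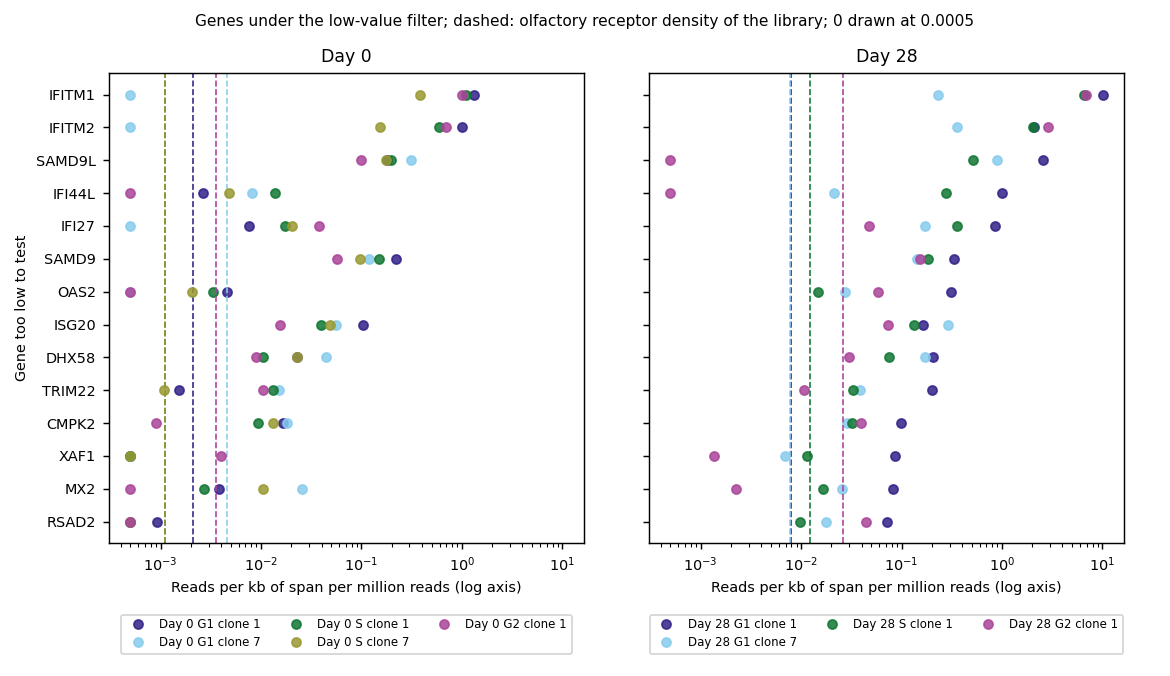
Reads per kb of span per M reads, on a log axis, of the 14 genes under the filter in the day 0 (left) and day 28 (right) libraries, with values of 0 drawn at 0.0005. Dashed lines mark the olfactory receptor density of each library, which is higher at day 28, and the day 28 G1 clone 1 points lie above their line for all 14 genes.

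Apart from IFNE, the interferon genes themselves gave almost no reads. None of the 21 (13 IFNA genes, IFNB1, IFNE, IFNK, IFNW1, IFNG, IFNL1, IFNL2 and IFNL3) passed the filter, 12 had 0 reads in every library, and 16 had at most 3 in any. IFNB1 had 1 read in 1 library. IFNL1 had 5 reads in day 28 G1 clone 1, IFNL2 had 2, 7, 1 and 0 in the day 28 libraries, IFNA6 had 17 and IFNA5 4 in day 28 G1 clone 7, and none of IFNL1, IFNL2 and IFNA6 had a read at day 0. IFNE had 4 to 27 reads at day 0 and 125, 146, 57 and 0 at day 28. In reads per kb per M reads this was 0.316 to 0.723 and 6.5, 6.9, 2.2 and 0. Its span lies inside the long RNA gene MIR31HG of the same strand, so the reads cannot be assigned to IFNE. Secreted interferon was not measured.

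Of 11 receptor subunits, kinases and STAT proteins, 3 were higher, near the background of 28.6%, and 0 were lower, below that of 26.5%. IFNLR1, the specific subunit of the type III receptor, had log2 values of 7.77, 8.01, 7.48, 7.43 and 8.33 at day 0 and 10.43, 10.04, 10.04 and 10.08 at day 28. The 4 day 28 libraries lay close together and far above day 0, with a log2 fold change of 2.28 ± 0.30 (SE, limma adjusted p = 0.000173). TYK2 rose by 1.04 ± 0.18 (SE, limma adjusted p = 0.000603) and JAK2 by 0.91 ± 0.35 (SE, limma adjusted p = 0.0424). The type I receptor subunits IFNAR1 (-0.23 ± 0.18) and IFNAR2 (-0.45 ± 0.29), the other type III subunit IL10RB (0.18 ± 0.22), the gamma receptor subunits IFNGR1 (0.17 ± 0.27) and IFNGR2 (-0.01 ± 0.28) and JAK1 (0.07 ± 0.22) had no call.

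Of 14 nucleic acid sensors, adaptors and activators, 11 were tested, 2 were higher and 1 lower, both below the shares of 28.6% and 26.5% over all tested genes. RIGI, the RNA sensor upstream of MAVS, had 9.84, 9.86, 9.43, 9.72 and 9.81 at day 0 and 12.36, 12.07, 10.54 and 11.15 at day 28, and rose by 1.70 ± 0.28 (SE, limma adjusted p = 0.000538). IRF3, the factor that first induces interferon beta, rose by 0.45 ± 0.17 (SE, limma adjusted p = 0.0412). MAVS, the mitochondrial adaptor of RIGI, fell by 1.14 ± 0.32 (SE, limma adjusted p = 0.0107), and its day 28 values of 8.26 to 8.59 lay below its day 0 values of 8.94 to 10.09. The sensor and its adaptor thus moved in opposite directions.

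Of 11 negative regulators, 3 were higher, near the background of 28.6%, and 1 was lower, below that of 26.5%. PIAS1, an inhibitor of STAT signalling, rose by 1.60 ± 0.23 (SE, limma adjusted p = 0.000262), the nuclease TREX1 by 0.97 ± 0.21 (SE, limma adjusted p = 0.00294) and the phosphatase PTPN6 by 0.84 ± 0.18 (SE, limma adjusted p = 0.00242). SOCS3, a feedback inhibitor induced mainly through STAT3, had 9.13, 8.69, 9.08, 9.65 and 7.90 at day 0 and 7.22, 4.19, 6.48 and 1.52 at day 28. It was below its day 0 range in all 4 libraries, and the log2 fold change was -3.84 ± 0.75 (SE, limma adjusted p = 0.00148). Its day 28 reads were 54, 7, 40 and 0, and its day 28 mean of 4.85 was below the cutoff of 7.01. SOCS3 was thus tested because of its day 0 values. The G2 value is the one entered for a row with no read, so the size of the fold change is uncertain.

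**Figure D5:**
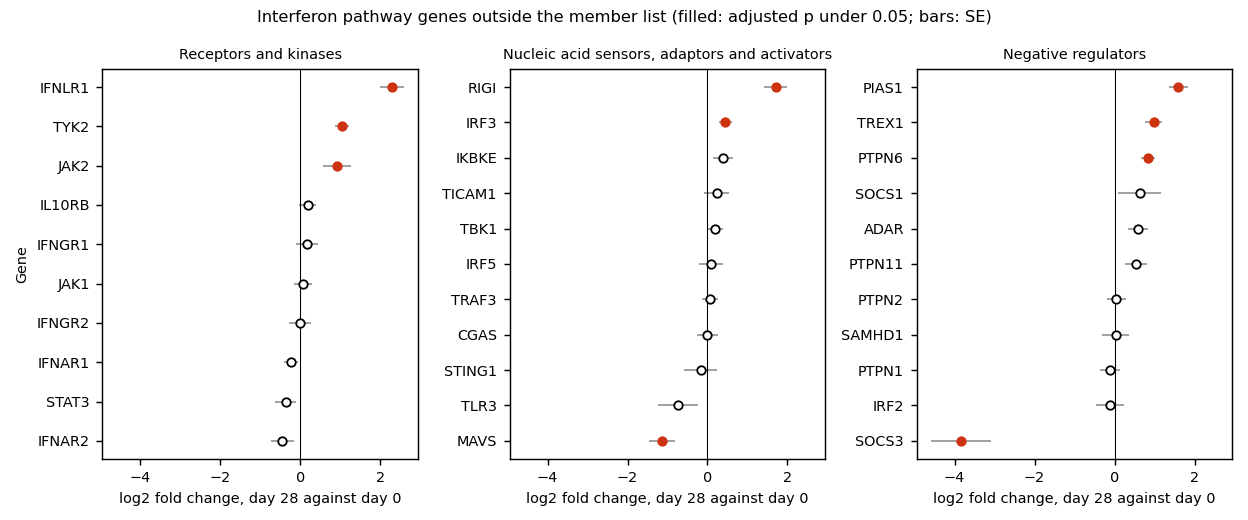
Log2 fold change with SE at day 28 against day 0 for tested receptors and kinases, sensors and adaptors, and negative regulators. Filled red points passed an adjusted p under 0.05, among them IFNLR1 at 2.28, RIGI at 1.70 and SOCS3 at -3.84. SOCS3 had 0 reads in day 28 G2.

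A list of 39 other interferon-induced genes, of which 30 were tested, had 8 higher and 8 lower, near the background of 28.6% and 26.5%. The 3 largest rises were in UBA7, the enzyme that activates ISG15 (2.51 ± 0.28, SE, limma adjusted p = 7.26e-05), DDX60, a helicase linked to RNA sensing (1.56 ± 0.24), and APOL2, an apolipoprotein L (1.54 ± 0.22). The 3 largest falls were in PNPT1, a mitochondrial ribonuclease (-1.30 ± 0.19), WARS1, the tryptophan tRNA synthetase (-1.20 ± 0.21), and TRIM5, a capsid-binding restriction factor (-1.17 ± 0.31), each with a limma adjusted p under 0.01. The median log2 fold change of the 30 was 0.02, that of all tested genes 0.02. CCL5, a chemokine named after its values were seen, was too low to test, with 0 to 2 reads in the day 0 libraries and 18 to 141 at day 28.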

How the data were processed

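RNA was measured in 9 libraries. Libraries were stranded and poly(A)-selected, per the labels' protocols. The genome build was GRCh38 and the aligner HISAT2 2.1.0, per the submitters' processing notes, which also list DESeq2 with no version. The counter, the scaling and the annotation release are not given in the sources used here. The deposited values are log2 of whole reads multiplied by a library-wide factor, where a row with no read holds 0.9 reads. This was read from the values (100% whole within 0.05 reads). The recovered reads averaged 43.0 M per library (8.83 to 108.7 M). The labels give a lower typical depth, and the reason for the difference is not known here. All read counts and densities in the text are of recovered reads.

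For each of 20435 symbols the row with the highest mean was kept, and 1 was added before log2. The 12403 genes whose mean reached 7.01 (10 reads in the library with the lowest depth) were tested. Tests used R 4.3.3 and limma 3.58.1 (lmFit, eBayes with trend). Day comparisons over all phases had day and phase as terms. Comparisons within a phase or day used 6 group means with 1 pooled spread, which lends a group of 1 library the spread of the rest. A count test was not run on log2 values, and voom on recovered reads was an alternative. The script was tested on simulated data. Clone numbers were read as marking a shared source. The gap between the clones (clone 7 minus clone 1) was correlated between pairs of groups. Within day 0, G1 against S gave 0.651. Across the days, the G1 groups gave 0.114, and S of day 0 against G1 of day 28 gave 0.295. The likeness was thus weaker across the days than within day 0. A fit without the clone treats libraries of the same clone as independent. Fits without the clone are reported, with the replicate block where it changed a call.

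Members, roles and gene lists were chosen with earlier results of these data known. Values in every library are given for genes called in any comparison and for neighbours of called genes, low genes as ranges, and from each list up to 3 called genes each way plus receptor subunits, JAK1, TYK2 and interferon genes. Some listed genes are not reported here. Alternatives were 2 scalings, 2 filters, pseudocounts of 0.1 and 5, the median row, a span trend, voom, the clone block, clone 1 alone and leaving out each library. The first-numbered transcript, olfactory subtraction and the day-by-clone term were added after seeing the data. Figures used Python 3.11.15 with matplotlib 3.10.9. Promoters and spans were annotated with RefSeq and GENCODE v29.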

Additional observations from a re-analysis of the deposited data

How the results depend on the processing

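No gene called as reported changed its direction under the settings run. IRF1, with no call and 0.00 over all phases, was lower with the median row (-1.38) and the first-numbered transcript (-0.77). For day 28 against day 0 over all phases, 10 genes were higher and 3 lower under quantile scaling, which added IFIT5 and OAS3 to the lower ones, and 12 were higher and 1 lower under median-of-ratios scaling. The count of lower genes was 2 with the median row and 0 with voom. The first-numbered transcript gave 7 higher and 2 lower, with 19 of the genes tested. Leaving out each library gave 11 to 17 higher and 0 to 1 lower. In G1 the count higher was 15 with no filter, 14 with voom and 5 to 14 without each library, and the median row gave 1 lower. In S the count higher was 0 with quantile scaling or olfactory subtraction, 6 with no filter, 4 with voom, 2 with the replicate block and 0 to 2 without each library, and the count lower was 0 with the median row, the span trend removed, the first-numbered transcript or olfactory subtraction, and 0 to 1 without each library. For S and G2 against G1 at day 28 the count lower was 5 with no filter or voom, 1 with the first-numbered transcript and 0 to 3 without each library. For clone 7 against clone 1 it was 2 with no filter, 1 with voom and 0 to 2 without each library, and the day-by-clone term gave 1 lower with no filter. The cause of these moves was not tested, except that no filter tests 45 genes and the first-numbered transcript and the median row test 19 and 26. The replicate block changed no other count by over 1.5 times. Over all tested genes the median was 0.02 as reported, -0.10 with median-of-ratios, -0.11 with quantile scaling, -0.20 with the median row and 0.28 with voom, and that of the tested members 0.37, 0.25, 0.24, 0.31 and 0.77. Depth limits the 14 low genes, whose values rest on few reads in the shallowest library. Clone 1 alone could be fitted only with day and phase as terms.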
